A study of Mus musculus with 4 samples.

Results

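The 8 genes described here encode proteins that neutrophils carry in large amounts: the cytosolic calcium-binding proteins S100a8 and S100a9, and the granule proteins Ngp, Camp, Ltf, Lcn2, Elane and Mpo. They were followed in the tibialis anterior (TA, a mostly fast shin muscle) and the heart of mice lacking MG56, an alternative name of Hhatl. Every probe set that the platform annotation pairs with 1 of these symbols alone was taken, which gave 8 probe sets, 1 for each gene, out of 45037 probe sets and 18193 named genes. The set was chosen by a measured value, the ratio of S100a8 in knockout over wild-type TA, which was among the larger ones. The knockout over wild-type ratios in TA are therefore a description of that choice and support nothing by themselves.

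There were 4 groups of C57BL/6J mice at postnatal day 9: MG56-knockout TA, wild-type TA, MG56-knockout heart and wild-type heart. The series' design text says that samples of 3 knockout mice were mixed, as were those of the wild types, whose number the sources used here do not give. Each group is 1 array of pooled total RNA of the whole tissue, so no replicate error and no p-value can be given, and a ratio compares pools. The sources used here do not say how the knockout allele was made, whether both tissues came from the same mice, or whether blood was rinsed from them.

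Neutrophils are short-lived white blood cells that mature in the bone marrow. Early precursors fill the primary granules with proteins such as myeloperoxidase (Mpo) and neutrophil elastase (Elane). Later precursors fill the secondary granules with lactoferrin (Ltf), cathelicidin (Camp), neutrophilic granule protein (Ngp) and lipocalin 2 (Lcn2). Transcripts of the granule proteins decline as the cells mature, whereas those of S100a8 and S100a9 stay abundant in circulating neutrophils. S100a8 and S100a9 proteins pair to form calprotectin, which binds calcium, zinc and manganese and signals through Tlr4 when released. Neither gene is exclusive to neutrophils, since monocytes and some stressed epithelia make them too.

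In the RefSeq gene order (assembly GRCm38.p6), S100a8 and S100a9 are direct neighbours on chromosome 3, with no other protein-coding gene between them. Elane lies directly beside Prtn3, another primary granule protease gene, on chromosome 10, and Mpo beside the lactoperoxidase gene Lpo on chromosome 11. Camp, Ngp and Ltf share chromosome 9, with 8 coding genes between Camp and Ngp and 29 between Camp and Ltf. Lcn2 is on chromosome 2.

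The 250 bases before the start sites of S100a8 and S100a9 are shown because these neighbours were the 2 genes with signal in both tissues. They are RefSeq sequences of build GRCm38.p6, 5′ to 3′ on the strand of the gene. The S100a8 stretch is chr3:90668821-90669070 on the plus strand and the S100a9 stretch chr3:90695722-90695971 on the minus strand. Capitals mark matches on either strand to TTGCNNAA (the core of a C/EBP site), GAGGAAG (a PU.1 site) or TGTGGT (a RUNX site), motifs of factor families that act in granulocyte development.
S100a8: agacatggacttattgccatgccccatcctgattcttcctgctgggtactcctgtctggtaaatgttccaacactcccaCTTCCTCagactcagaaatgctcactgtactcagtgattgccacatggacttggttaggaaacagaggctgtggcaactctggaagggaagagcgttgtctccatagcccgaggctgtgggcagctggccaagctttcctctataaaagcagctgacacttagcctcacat
S100a9: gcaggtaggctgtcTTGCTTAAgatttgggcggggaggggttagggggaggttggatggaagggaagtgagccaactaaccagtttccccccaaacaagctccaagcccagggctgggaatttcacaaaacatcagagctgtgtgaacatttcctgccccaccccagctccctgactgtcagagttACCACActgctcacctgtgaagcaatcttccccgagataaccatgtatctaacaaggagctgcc
The S100a8 stretch holds 1 match, to the PU.1 motif on the opposite strand, from 171 to 165 bases before the start. The S100a9 stretch holds 1 match to the C/EBP motif, from 236 to 229 bases before the start, and 1 to the RUNX motif on the opposite strand, from 64 to 59 bases before it. The C/EBP motif was found in 4 of the 8 genes (S100a9, Ltf, Ngp and Lcn2) and in 9.6% of all 32851 windows of this length. The PU.1 motif was found in 4 of 8 (S100a8, Mpo, Elane and Lcn2) and in 10.6% of all windows, and the RUNX motif in 1 of 8 and in 14%. In these 8 windows no match overlapped another. A match describes the letters and not binding, and these factors were not assayed here.

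Of the 8 genes, 2 were above background in both tissues. Signals are MAS5 values on a linear scale, and 101.3, the median over all of them, was set as a floor. A gene counts as measured where it reached the floor on either array of a comparison, and any lower signal was raised to the floor. By this rule S100a8 was above the floor on 4 arrays, S100a9 on 3 and Ngp on 1. Camp, Ltf, Lcn2, Elane and Mpo were under it on all 4, with signals between 5.9 and 81.0. Because the floor is the median, only 49.5% to 50.7% of all probe sets of an array reached it. A gene that is measured only through its brightest array had to differ, so counts among measured members are given as descriptions.

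S100a8 had a signal of 740.0 in knockout TA, 140.6 in wild-type TA, 505.3 in knockout heart and 338.1 in wild-type heart. The knockout pool was thus the higher one in both tissues, and wild-type TA was the dimmest of the 4 arrays, at a level not far above the floor. The knockout over wild-type ratio was 5.26-fold in TA (log2 ratio 2.40) and 1.49-fold in heart (log2 ratio 0.58). In the order of 11528 genes measured in TA it stood at place 15, next to N4bp2l1, Fam174b and 1810014B01Rik, with ratios of 5.47, 5.42 and 5.41, just above it, and the ER degradation gene Derl3, at 5.21, just below it. Mthfd2, at place 11 with 5.72-fold, was also near. The other 3 probe sets of 1810014B01Rik gave log2 ratios of -0.14, -0.23 and -0.24, so the place of this gene rests on 1 probe set. In heart S100a8 stood at place 313 of 11452.

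S100a9 had a signal of 196.8 in knockout TA, 96.8 in wild-type TA, 263.6 in knockout heart and 163.5 in wild-type heart. It was again higher in the knockout pool of each tissue, but heart and not TA held its highest signal. Since wild-type TA was just under the floor, its ratio in TA was at least 1.94-fold (log2 ratio at least 0.96), at place 126 with that bound. In heart it was 1.61-fold (log2 ratio 0.69), at place 157. Because the TA value of S100a9 is a bound, its size is not set against that of S100a8 there. In heart, where both genes were above the floor in both pools, their log2 ratios were 0.69 and 0.58.

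Ngp, a cystatin-related protein of the secondary granules, had signals of 128.4 in knockout TA, 96.5 in wild-type TA, 85.9 in knockout heart and 94.8 in wild-type heart. Only knockout TA passed the floor, which gave a ratio of at least 1.27-fold there and none in heart. All 4 values lay close to the floor.

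The other secondary granule genes were at background. Camp, the gene of the antimicrobial peptide cathelicidin, gave signals of 81.0 and 46.3 in knockout and wild-type TA, and 60.5 and 49.4 in knockout and wild-type heart. Ltf, which encodes the iron-binding protein lactoferrin, gave 48.4 and 40.1 in TA, and 63.4 and 49.3 in heart. Lcn2, which encodes a protein that binds bacterial siderophores, gave 30.1 and 6.8 in TA, and 31.5 and 19.7 in heart. In all 3 the knockout signal was the larger number in each tissue, but signals under the floor have no order and no fold is given for them. The probe sets of these 3 genes were brighter than at most 46.4% of all probe sets of an array.

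The primary granule genes were at background as well. Elane gave 39.3 and 24.7 in knockout and wild-type TA, and 14.2 and 20.5 in knockout and wild-type heart. Mpo gave 35.9 and 43.3 in TA, and 5.9 and 23.7 in heart. Both lay under the floor everywhere, and their knockout values were not uniformly the larger.

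**Figure D1:**
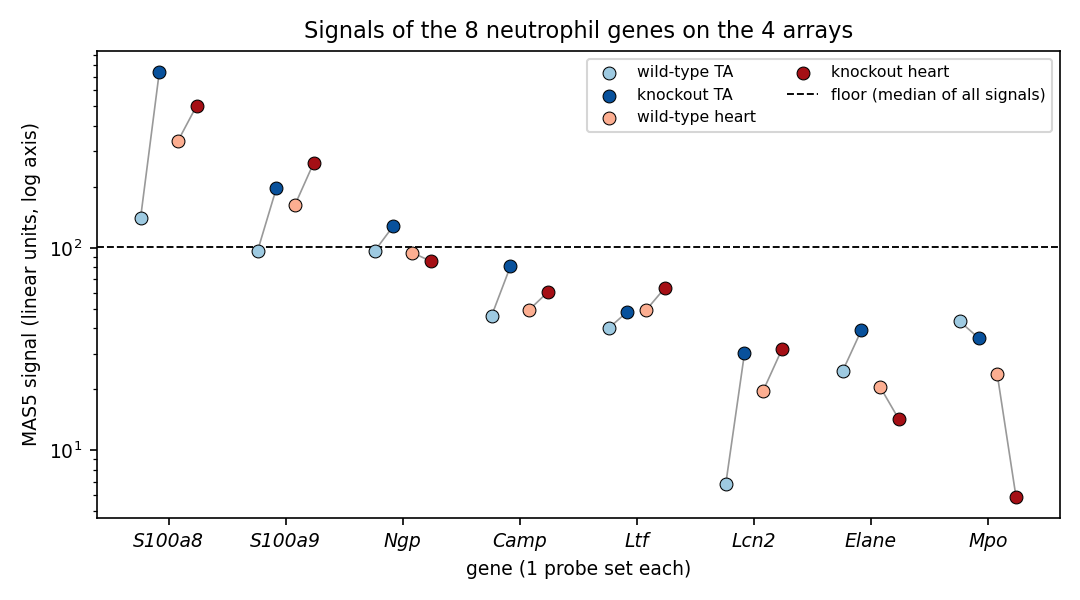
Signals of the 8 genes (x axis) on the 4 arrays (y axis, linear MAS5 units on a log axis); each point is 1 array of pooled RNA, grey lines join wild type and knockout of a tissue, and the dashed line is the floor of 101.3. S100a8 and S100a9 lie higher in the knockout of both tissues, Ngp passes the floor in knockout TA alone, and the other 5 genes stay under it on all 4 arrays.

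Counted at 1.5-fold, 2 of the 3 measured members, S100a8 and S100a9, were higher in knockout TA and 0 were lower. Over all genes measured in TA, 4.2% were at least 1.5-fold higher and 4.44% lower. Because S100a8 in this comparison set the choice of genes, nothing is read from that count. At 2-fold, 1 of 3 was higher (S100a8), against 0.954% of all genes. The same share was also taken over genes of similar brightness. Among the 3058 genes whose mean signal in TA lay within 2-fold of that of S100a9, 5.23% were at least 1.5-fold higher. S100a9 was measured in TA only through knockout TA, and it is the neighbour of the gene that set the choice. Nothing is therefore read from its place among these genes.

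In heart, 1 of the 2 measured members was at least 1.5-fold higher (S100a9) and 0 were lower, while S100a8 missed the threshold narrowly. Over all genes measured in heart, 2.67% were at least 1.5-fold higher and 4.19% lower. The heart ratio did not enter the stated rule, but heart results were known when the genes were chosen, so this too is a description. Among 3968 genes with a mean signal within 2-fold of that of S100a9, 2.55% had a ratio at least as high. Among 4391 genes of a brightness like that of S100a8, 3.01% had a ratio at least as high as its own. With 1 array for each genotype, none of these differences can be set against a spread between mice. The 2 genes lie side by side and are known to be expressed together, so they do not count as independent observations.

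**Figure D2:**
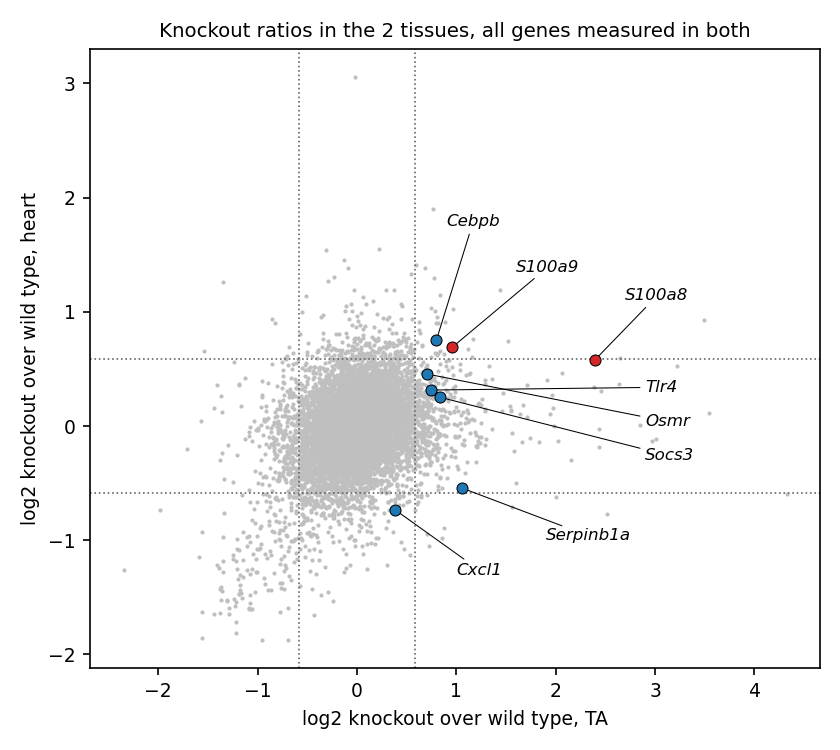
Log2 knockout over wild-type ratio in TA (x axis) and heart (y axis) of every gene measured in both tissues (grey points), with S100a8 and S100a9 in red and related genes in blue; dotted lines mark 1.5-fold. S100a8 lies far to the right at 2.40 and 0.58, S100a9 at 0.96 and 0.69 close to Cebpb, and Serpinb1a and Cxcl1 are above 0 in TA and below 0 in heart.

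Between the wild-type tissues, S100a8 was 2.40-fold lower in TA than in heart and S100a9 at least 1.61-fold lower. Thus 2 of the 2 measured members were at least 1.5-fold lower, as were 18.0% of all 11872 genes measured, and 0 were higher, against 14.5% of all genes. This comparison uses the same wild-type TA array as the knockout comparison in TA, so the low wild-type TA signals enter both. Among the knockout pools the order of the tissues differed between the genes: S100a8 was brighter in TA (740.0 against 505.3) and S100a9 in heart (263.6 against 196.8). The tissues were as labelled: 15 of 15 skeletal muscle genes were at least 1.5-fold higher in wild-type TA, and 13 of 15 heart genes at least 1.5-fold higher in wild-type heart. The heart gene Myh7 went the other way, 13.8-fold higher in wild-type TA. Between the heart pools, Myh7 was 8.3-fold higher in the knockout. There 2 of 6 measured skeletal muscle genes were lower in the knockout, Casq1 (2.73-fold) and Myl1 (2.42-fold). The part of these differences in the S100a8 and S100a9 values was not tested. Hhatl, the targeted gene, gave 1078.4 in knockout and 5491.4 in wild-type TA, and 879.8 and 2109.5 in heart.

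Most other genes of neutrophil granules were at background. Of 22 listed, 20 had a probe set with 1 symbol, and 14 of these were under the floor on all 4 arrays, among them the primary granule proteases Prtn3 and Ctsg, the collagenase gene Mmp8, the gelatinase gene Mmp9, and Cd177 and Chil3. Of the 6 measured in TA, 1 was at least 1.5-fold higher and 0 lower (median log2 ratio 0.04, against -0.01 over all genes). That gene was Serpinb1a, which encodes an inhibitor of neutrophil proteases, with signals of 890.8 in knockout and 427.2 in wild-type TA (2.09-fold higher). In heart it was 283.0 in knockout and 412.7 in wild type (1.46-fold lower). Its second probe set gave a log2 ratio of at least 0.54 in TA. The lysozyme gene Lyz2, shared with macrophages, was bright on all arrays, at 2612.7 and 2157.3 in knockout and wild-type TA, 1.21-fold apart. The other measured genes with the largest ratios, Cybb of the phagocyte oxidase and Anxa1, had log2 ratios of -0.27 and -0.20 in TA. In heart 0 of 5 measured genes passed 1.5-fold either way (median -0.24, against -0.002 over all genes). Over all genes, 4.2% were at least 1.5-fold higher and 4.44% lower in TA, and 2.67% and 4.19% in heart. The counts of this list and of those that follow stand beside these shares. Of all 18193 named genes, 11528 were measured in TA and 11452 in heart, so many genes of any kind were under the floor. The share of all genes under it on all 4 arrays was not taken. Counts of genes under the floor therefore do not set a list apart.

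Neutrophil surface and signalling genes were mostly at background too. Of 18 with a probe set, 10 were under the floor on all 4 arrays. These included Csf3r, the receptor of the granulocyte growth factor, Cxcr2, the main chemokine receptor of neutrophils, and Itgam, an integrin subunit of neutrophils and macrophages. Csf3r gave 56.1 and 60.6 in knockout and wild-type TA, Cxcr2 10.9 and 4.9, and Itgam 34.3 and 54.0. Among 7 measured genes in TA, 0 passed 1.5-fold in either direction (median -0.09), and in heart 0 of 7 did (median 0.04). The largest log2 ratios in TA were those of the integrin gene Itgb2, at least 0.50, and of the chemokine receptor gene Cxcr4, 0.42. Summed over the list, the signal was 1354.2 in knockout and 1400.5 in wild-type TA, and 1400.6 and 1364.4 in heart. Elane, Mpo, Camp, Ltf, Csf3r, Cxcr2 and Itgam were thus under the floor in all 4 pools. Other genes of the surface list were not: 8 reached the floor on at least 1 array, among them Ncf1, Ncf4 and Selplg on all 4. A signal under the floor does not show that the cells were absent. In RNA of whole tissue, fewer cells of a type and less RNA per cell cannot be told apart.

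**Figure D3:**
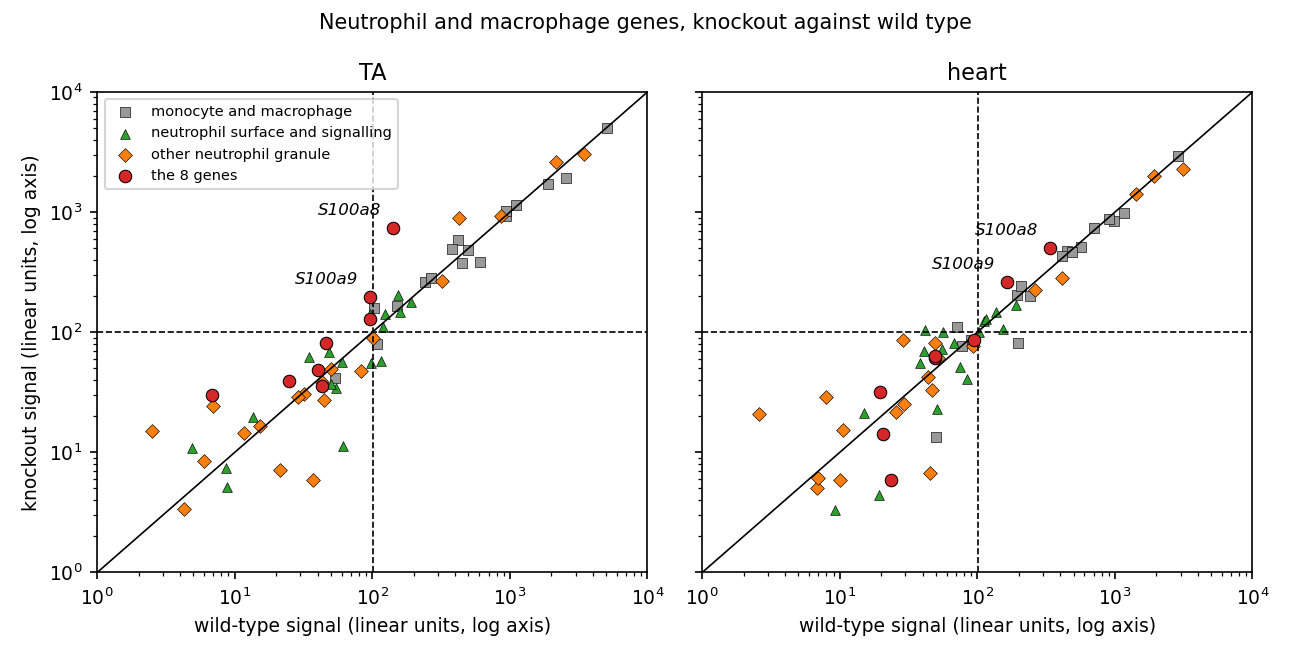
Knockout signal (y axis) against wild-type signal (x axis), both in linear MAS5 units on log axes, in TA (left) and heart (right) for the 8 genes and 3 lists; the diagonal marks equal signals and dashed lines the floor of 101.3. S100a8 stands off the diagonal in TA, most neutrophil genes lie in the corner under both floors, and most macrophage markers lie near the diagonal.

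The calcium-binding S100 proteins are a large family. Of 16 other members listed, 11 had a probe set and 7 were measured in TA, where 0 passed 1.5-fold (median log2 ratio -0.04). In heart 0 of 6 passed it, and the median was -0.35. Over all genes, 4.2% were higher and 4.44% lower in TA, and 2.67% and 4.19% in heart. For so few genes a count of 0 is near these shares, so it does not set the family apart. S100a1, which modulates calcium handling in heart and muscle, gave signals of 657.9 and 530.8 in knockout and wild-type TA, and 5911.5 and 6545.9 in heart. S100a13 had a log2 ratio of 0.29 in TA, S100a16 -0.17 and S100a6 -0.17. In heart S100a6 was 1.49-fold lower in the knockout, opposite to S100a8 and S100a9. Between the wild-type tissues, 3 of 7 were higher in TA and 2 lower, with S100a1 12.3-fold lower.

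**Figure D4:**
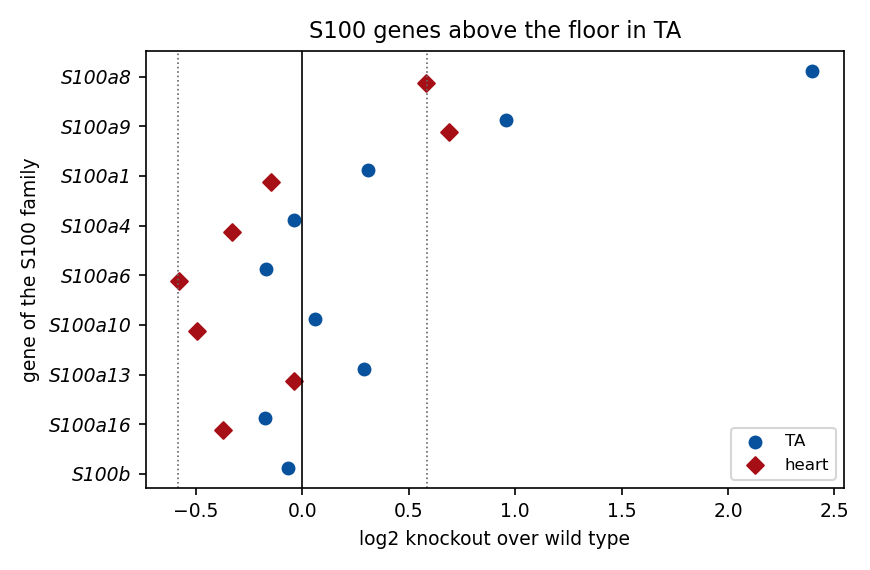
Log2 knockout over wild-type ratio (x axis) of the S100 genes measured in TA (y axis), with circles for TA and diamonds for heart; dotted lines mark 1.5-fold. S100a8 and S100a9 lie to the right in both tissues, the other genes stay inside the lines in TA, and S100b has no heart value because it was under the floor there.

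Of 11 receptor genes for the released proteins with a probe set, 8 were above the floor on at least 1 array. Over all genes, 4.2% were at least 1.5-fold higher and 4.44% lower in TA, and 2.67% and 4.19% in heart. Of 8 receptor genes measured in TA, 1 was at least 1.5-fold higher and 0 lower (median log2 ratio 0.06). In heart 0 of 8 passed (median 0.12). The one was Tlr4, the receptor for calprotectin, with signals of 383.7 in knockout and 229.2 in wild-type TA (1.67-fold higher) and of 408.0 and 328.0 in heart (1.24-fold higher). A second Tlr4 probe set gave log2 ratios of 0.84 in TA and 0.33 in heart, and a dimmer one, under the floor in TA, gave at least 0.77 in heart, past 1.5-fold. Lrp1 and Cd36 had log2 ratios of 0.27 and 0.22 in TA, and P2rx7 -0.16. Ager, another calprotectin receptor, was under the floor on all 4 arrays.

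Transcription factor genes of the granulocyte lineage gave 2 of 6 at least 1.5-fold higher in knockout TA and 0 lower (median 0.22). Over all genes the shares were 4.2% and 4.44%. Cebpb, whose product drives emergency granulopoiesis and also acts in many other cells, gave 3635.4 and 2089.3 in knockout and wild-type TA (1.74-fold higher) and 1415.8 and 841.9 in heart (1.68-fold higher). Its second probe set pointed the same way, with log2 ratios of 0.66 and 0.62. Klf5 was 1.93-fold higher in TA on its brightest probe set, but a second measured probe set gave a log2 ratio of -0.12, so its direction is not settled. Runx1 and Irf8 had log2 ratios of 0.28 and 0.16 in TA. In heart 2 of 3 measured genes were higher, Cebpb and Cebpd, beside 2.67% of all genes. The log2 ratio of Cebpd was 0.59, although a second Cebpd probe set gave -0.48 or less. Cebpa and Gfi1, factors of early granulocytes, were under the floor on all arrays, and Spi1, the gene of PU.1, passed it in knockout TA alone (102.5, against 50.5 in wild-type TA).

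Of 21 chemokine, cytokine and adhesion genes, 11 were under the floor on all 4 arrays, including Cxcl2, Cxcl5, Csf3, Il6 and Tnf. In TA 0 of 8 measured genes passed 1.5-fold (median 0.07). Over all genes, 4.2% were higher and 4.44% lower in TA, and 2.67% and 4.19% in heart. Cxcl1, a neutrophil chemokine, gave 163.2 and 125.0 in knockout and wild-type TA, and Cxcl12, which retains neutrophils in the marrow, 2292.3 and 1695.7 (a second Cxcl12 probe set gave a log2 ratio of -0.01). In heart 1 of 8 was lower and 0 higher (median -0.13): Cxcl1, at 193.8 and 322.3 (1.66-fold lower), while a second Cxcl1 probe set had a log2 ratio of -0.07 there. The adhesion gene Vcam1 had a log2 ratio of -0.52 in TA and Ccl2 0.23.

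In the list of acute phase and inflammation-induced genes, 2 of 8 measured were at least 1.5-fold higher in knockout TA and 0 lower (median 0.15). Over all genes, 4.2% were higher and 4.44% lower in TA, and 2.67% and 4.19% in heart. Socs3, a feedback inhibitor of cytokine signalling, gave 1168.3 and 652.0 in knockout and wild-type TA (1.79-fold higher), and Osmr, the oncostatin M receptor gene, 738.9 and 453.5 (1.63-fold higher). In heart their ratios were 1.19-fold and 1.37-fold. A second Socs3 probe set gave a log2 ratio of 0.66 in TA. Another, above the floor on both TA arrays (231.7 and 208.1), gave 0.155, so the size of the Socs3 rise is not settled. Stat3, which acts downstream of cytokine receptors, had a log2 ratio of 0.30 in both tissues on its brightest probe set. Its other probe sets gave -0.09 or less, at least 0.76 and 0.27 in TA. In heart the same probe sets gave at least 0.28, 0.38 and 0.03. In heart 1 of 8 was lower and 0 higher (median 0.19), namely Il6ra (at least 1.53-fold), whose second probe set did not follow it. Saa1, Saa2, Saa3 and Hp were under the floor throughout.

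Markers of other blood cells were measured beside these genes, and their part in the S100a8 and S100a9 values was not tested. Monocyte and macrophage markers were well above the floor, 16 of 17 on at least 1 array. Their summed signal was 15078.6 in knockout and 15753.0 in wild-type TA, and 9243.5 and 9659.9 in heart. In TA 1 of 16 was higher (the Fc receptor gene Fcgr1, 1.54-fold) and 1 lower (Lyve1, 1.56-fold), around a median of 0.02. In heart 0 of 14 were higher and 1 was lower (Folr2, at least 1.95-fold), around a median of -0.01. Of 13 red blood cell markers with a probe set, 7 were under the floor on all 4 arrays, among them Hba-a1, Klf1 and Gata1. Of those measured, 0 of 5 were past 1.5-fold in TA (median -0.28) and 0 of 6 in heart (median -0.09). The summed signals of the list were 7135.1 and 7709.5 in knockout and wild-type TA, and 8408.5 and 8907.1 in heart. Alas2, the erythroid heme synthesis gene, gave 175.7 and 223.1 in TA, and 654.2 and 637.1 in heart. The haemoglobin beta genes had no probe set with 1 symbol and are not analysed here. The sums are carried by Fech, Xpo7, Bpgm and Car2, which other cells express too. These genes and Alas2 were the ones measured in TA, so the count and median there are no measure of the blood in the tissue. Alas2 was 2.86-fold lower in wild-type TA than in wild-type heart.

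Platelet markers had 0 of 4 higher and 1 lower in TA (Treml1, with a log2 ratio of -0.59 or less; median -0.27), and 0 of 5 past the threshold in heart. Eosinophil, basophil and mast cell markers had 0 of 4 past it in either tissue. Of 16 lymphocyte markers, 13 were under the floor on all arrays and 0 were measured in TA. Bone and bone marrow markers, listed because the leg muscle lies on bone, had 0 of 4 higher and 1 lower in TA (Acan, 1.61-fold). The 4 were Acan, Ctsk, Cd34 and, near the floor, Acp5. Bone matrix genes Ibsp and Dmp1 were under the floor on all arrays, as was Flt3, so the count is no measure of bone or marrow in the sample.

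The genes whose pattern over the 4 arrays was most like that of S100a8 were Fbxo32, Ero1b, Klf15, Uty and Rbm15b. Likeness was the Euclidean distance between log2 signals, each gene centred on its mean over the 4 arrays, among genes reaching 4 times the floor on at least 1 array. S100a9 and the other members did not reach that level, so they were not among the genes compared. The distances ran from 0.48 for Fbxo32 to 0.82 for Rbm15b, and a distance over 4 arrays is a loose measure. Fbxo32, a muscle ubiquitin ligase gene, gave 2551.8, 676.5, 2416.7 and 1828.7 in knockout TA, wild-type TA, knockout heart and wild-type heart. Uty is Y-linked and was 2.71-fold higher in knockout TA and 2.29-fold higher in knockout heart, so the pools of the genotypes also differed in a Y-linked transcript. Its part in the S100a8 values was not tested.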

How the data were processed

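RNA of 4 pools was measured on 1 Affymetrix mouse array each. The authors deposited 1 intensity per probe set on a linear scale, and the submitters' processing notes name MAS5. The sources used here do not give its version, scaling target or detection calls. Means trimmed by 2% at either end ran from 496.35 to 496.83, so the arrays share a scale. The number of arrays limits the precision.

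Of 45037 probe sets, 34945 had 1 gene symbol in the platform's annotation, 932 several and 9160 none. Only the first kind was used; 34741 matched a RefSeq gene (GRCm38.p6). The probe set with the highest mean signal stood for a gene with several. Ratios are of deposited signals raised to the floor, and genes past 1.5-fold were counted in the 3 comparisons. Context lists are described by counts and medians. The motif search used the 250 bases before each RefSeq start. Named genes were the 8 members, Hhatl, up to 4 genes of a list with the largest ratios in TA (and in heart, where a gene passed 1.5-fold), genes behind small counts, the 5 nearest to S100a8 in pattern and the 5 nearest in TA ratio. A few genes under the floor, S100b, Spi1, Alas2 and genes given as cell type markers were added after their values were seen. Members and lists were chosen with earlier results of these data known. Alternatives were centring, quantile normalization, other floors, other probe set rules and a 2-fold threshold. Computations ran in Python 3.11.15 with pandas 2.3.3. They were tested on the wild-type arrays with fold changes planted in genes at or above 4 times the floor. Genes near the floor were given no planted change.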

Additional observations from a re-analysis of the deposited data

Results flagged for a closer look

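In 4 genes of the neutrophil, inflammation and blood cell lists (tissue label genes left out), a ratio past 1.5-fold in 1 tissue went with the opposite sign in the other. These differences between the tissues were not tested, since each rests on 4 single arrays. The log2 knockout over wild-type ratio in TA minus that in heart was 1.6 for Serpinb1a, 1.12 for Cxcl1, at least 0.73 for Il6ra and -0.66 for Cebpd. Serpinb1a had 2 probe sets, and the dimmer was under the floor in both hearts. In heart, second probe sets of Cxcl1, Il6ra and Cebpd gave log2 ratios of -0.07, 0.04 and -0.48, against -0.73, -0.62 and 0.59 for the brightest. Both values of Il6ra, and that of the second Cebpd probe set, were computed with a signal raised to the floor and are bounds.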

How the results depend on the processing

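No paired analysis was possible because each group has 1 array and the result comes from no test. S100a9 stayed past 1.5-fold in both knockout tissues under all alternatives that gave it a value, with log2 ratios from 0.96 to 1.02 in TA and 0.64 to 0.69 in heart. S100a8 in heart stayed under 1.5-fold, with log2 ratios from 0.10 to 0.58. In TA its log2 ratio ran from 0.65, under a 75th percentile floor, to 2.40. Without probe sets whose names end in _s_at, _x_at or _a_at, which can match several transcripts, S100a8 has no value. The count of members higher in knockout TA, 2, was then 1, as also under a 75th percentile floor and at 2-fold. It was 5 with no floor, Camp, Lcn2 and Elane being added from signals under it. Camp (81.0 and 46.3 in knockout and wild-type TA) passed 1.5-fold under a 25th percentile floor as well, so the count rose there too. In heart the count, 1, was 0 under a 75th percentile floor and at 2-fold, and 2 with no floor. The count of members higher in wild-type TA than in wild-type heart, 0, was 1 (Mpo) under a 25th percentile floor or none. The log2 ratio of Klf5 in TA was -0.12 as the median over probe sets and without those probe sets, and that of Il6ra in heart was 0.041 without them; here the alternative uses another probe set.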

Other observations

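By the same measure of likeness, applied after the values had been seen, the genes nearest to S100a9 were the clock gene Per1, the ER stress sensor gene Atf6, the cytokine receptor gene Osmr, the clock gene Per2 and Ypel3, at distances from 0.18 to 0.31. Per1 gave signals of 525.6 in knockout and 284.9 in wild-type TA, and of 748.2 and 397.0 in heart.

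Between the wild-type tissues, 14.5% of all genes measured were at least 1.5-fold higher in TA and 18.0% lower. Of the 4 measured genes of eosinophils, basophils and mast cells, 3 were higher in TA (Mcpt4 at least 3.16-fold, Cma1 2.81-fold and Cpa3 2.31-fold) and 1 was lower (Kit, 1.81-fold). Of 16 macrophage markers, 6 were higher in TA, among them Mrc1 at 2.60-fold, and 1 was lower, Cx3cr1 at 1.61-fold. S100a8 and S100a9 were lower in TA in the same comparison.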
